A study of Mus musculus with 6 samples.

Results

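The cytosolic ribosomal proteins are the protein components of the ribosomes that translate messenger RNA in the cytoplasm. Their transcripts were followed in A20 cells, a B lymphoma line from a BALB/c mouse, on Affymetrix arrays that cover the mouse genome. Members were the probe sets annotated with 1 gene symbol that starts with Rpl or Rps and a digit, or is Rpsa, Rplp0, Rplp1 or Rplp2, with Rps6 kinases and pseudogene symbols left out. There were 106 such probe sets of 45101 on the array, and they named 50 genes of 18194. A further 110 probe sets that carry a ribosomal protein symbol beside other symbols were left out, and 31 ribosomal protein genes appear only on those, Rpl5, Rpl23 and Rplp1 among them. The rule uses gene names and no signal. It also takes in Rps19bp1, which encodes a partner of Rps19 and no ribosomal protein, and Rpl7l1, a paralog of Rpl7 that acts in ribosome assembly.

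Each of 6 conditions had 1 array. Cells received TGF-β for 12 h or 24 h together with SP600125, which inhibits JNK kinases, or 24 h of SP600125 without TGF-β. The other arm received TGF-β for 12 h or 24 h with DMSO, the solvent of the drug, or DMSO without TGF-β, which is called untreated. The drug was therefore present for 24 h on the array without TGF-β and for 12 h on the array of 12 h. The study asked which genes TGF-β induces and which inductions need JNK, and no condition was repeated. The number of arrays thus limits the precision, and a p-value here weighs an effect against the departure of single arrays from the additive model.

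A ribosome has a small subunit, whose proteins are named Rps or Rpsa, and a large subunit, whose proteins are named Rpl or Rplp, and the proteins of both are made in equal numbers to fit the ribosomal RNAs. Most of their messenger RNAs begin with a run of C and T bases, the 5′ terminal oligopyrimidine (TOP) tract, through which the kinase mTORC1 and the binding protein LARP1 control their translation and stability. Dividing B lymphoma cells make ribosomes at a high rate, and several ribosomal protein genes also carry small nucleolar RNAs in their introns.

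The start regions of 9 members are shown, from among the genes that passed a test below, themselves or by single probe sets. Those of Rpl7, Rpl22, Rpl27, Rps9 and Rps10, which passed by single probe sets, are not shown. Each stretch runs from 60 bases before to 20 bases from the annotated transcript start, from the RefSeq promoter table of GRCm38.p6, 5′ to 3′ on the transcribed strand. Capitals mark a run of at least 8 C or T bases that lies within 20 bases of the start, or the motif CCGGAAG, which ETS family factors bind.
Rps6 (chr4:86857348-86857427, minus strand): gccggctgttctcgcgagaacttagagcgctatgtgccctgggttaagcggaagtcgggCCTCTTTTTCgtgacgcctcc
Rpl14 (chr9:120571457-120571536, plus strand): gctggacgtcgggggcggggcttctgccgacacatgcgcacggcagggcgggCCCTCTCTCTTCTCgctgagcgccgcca
Rpl22l1 (chr3:28805448-28805527, plus strand): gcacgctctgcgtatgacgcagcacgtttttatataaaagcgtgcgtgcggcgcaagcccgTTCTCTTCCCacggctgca
Rpl13a (chr7:45128726-45128805, minus strand): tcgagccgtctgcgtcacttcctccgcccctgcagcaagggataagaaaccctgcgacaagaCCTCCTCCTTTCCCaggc
Rps3 (chr7:99483690-99483769, minus strand): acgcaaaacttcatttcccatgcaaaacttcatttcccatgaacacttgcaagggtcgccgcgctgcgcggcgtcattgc
Rpl27a (chr7:109519135-109519214, plus strand): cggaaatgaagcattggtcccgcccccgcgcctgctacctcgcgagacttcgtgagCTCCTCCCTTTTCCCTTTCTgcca
Rpl37 (chr15:5116553-5116632, plus strand): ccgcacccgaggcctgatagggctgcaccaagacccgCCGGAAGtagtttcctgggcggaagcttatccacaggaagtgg
Rpl12 (chr2:32961652-32961731, plus strand): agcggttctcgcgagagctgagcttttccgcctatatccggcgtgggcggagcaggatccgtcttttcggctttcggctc
Rps27 (chr3:90213629-90213708, minus strand): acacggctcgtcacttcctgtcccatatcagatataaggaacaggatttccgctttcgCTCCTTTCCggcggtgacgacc

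The pyrimidine run lay at the start of Rps6, Rpl14, Rpl22l1, Rpl13a, Rpl27a and Rps27, and the search marked none in the stretches of Rps3, Rpl12 and Rpl37. The longest was that of Rpl27a, with 20 bases. Over 52 annotated starts of 44 member genes, 46.2% held such a run, against 21.0% of all 32851 starts in the table. CCGGAAG, searched on both strands over the table's whole promoter windows, was found at 40.4% of member starts and 8.86% of all starts. The TATA motif TATAAA, searched the same way, was found at 11.5% and 13.6%. On the other strand CCGGAAG reads CTTCCGG, which begins with C and T bases, so a stretch can count for both it and a run. A match describes the sequence only.

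The values are signals, linear intensities scaled by the authors to the same mean on each array. Array medians lay between 69.3 and 80.9. On the array of 24 h of TGF-β with SP600125 the control probe sets stood out, with 18S ribosomal RNA at 5878 against 506.5 to 881.5 on the other 5 and an actin 3′/5′ ratio of 1.89 against at most 1.51. All 7 B cell markers on the array were above the floor of 74.2 on every array. Their summed signal was 35437, 37385 and 37744 at 0, 12 and 24 h of TGF-β with SP600125, against 51285, 53681 and 61151 with DMSO, and 5 of 7 fell with SP600125. Markers of other cells stayed low, with 0 to 2 of 5 T and NK cell markers, 2 to 3 of 5 myeloid, 0 to 3 of 5 fibroblast and 0 of 2 erythroid markers above the floor. The part of these differences in the results below was not tested.

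Most member probe sets gave high signals, with a mean above 10000 for 69 of them. A signal also depends on its probes, so it does not rank transcripts by abundance. Above the floor on at least 2 arrays, and so tested, were 97 of 106 probe sets and 46 of 50 genes, 24 of the 26 named Rpl or Rplp and 22 of the 24 named Rps or Rpsa. The untested genes were Rpl3l, Rpl39l and Rps4l, paralogs known from muscle or testis, and Rps16, whose only probe set of 1 symbol had signals of 1.6 to 39.5. The brightest probe set stood for the gene in the gene-level tests.

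The signals of the bright members moved little and together. The highest was 55254, where the highest signal on any array was 64898. Whether signals this high narrow the differences was not tested. Rpsa, a small subunit protein also known as the laminin receptor, had signals of 48913, 46816 and 55254 at 0, 12 and 24 h of TGF-β with SP600125, against 42349, 43621 and 45979.7 with DMSO. Rplp0, which anchors the stalk of the large subunit, had 36083, 35419 and 38264 at 0, 12 and 24 h of TGF-β with SP600125, against 30896, 35472 and 35425 with DMSO, and Rplp2, which forms that stalk, had 41216, 41354 and 46706 at 0, 12 and 24 h of TGF-β with SP600125, against 35929, 38701 and 41333 with DMSO. In these 3 genes the untreated array was the lowest of the 6 and the array of 24 h of TGF-β with SP600125 the highest.

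That order held for most of the family. Over the 69 member probe sets with a mean signal above 10000, the highest array was a median of 1.28-fold above the lowest. Untreated cells were lowest in 62 of them (89.9%), and 24 h of TGF-β with SP600125 was highest in 59 (85.5%). Over the other 659 probe sets above 10000, that median was 1.34-fold, and the same arrays were lowest in 37.8% and highest in 26.7%. Only this cutoff was shared, and brightness above it was not matched. The 659 also hold probe sets with a ribosomal protein symbol beside other symbols, which make up 41 of the 100 brightest on the array. The order depended on the scaling. After median scaling the untreated array was lowest in 43 of the 69 and SP600125 alone highest in 36, and after quantile normalization untreated cells were lowest in 11 and highest in 12. The 18S and actin values of the array of 24 h with SP600125 differ in the same direction as its rank, and their part in it was not tested. The 28 tested member probe sets up to a signal of 10000 varied more, with a median of 1.94-fold between their highest and lowest arrays.

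**Figure D1:**
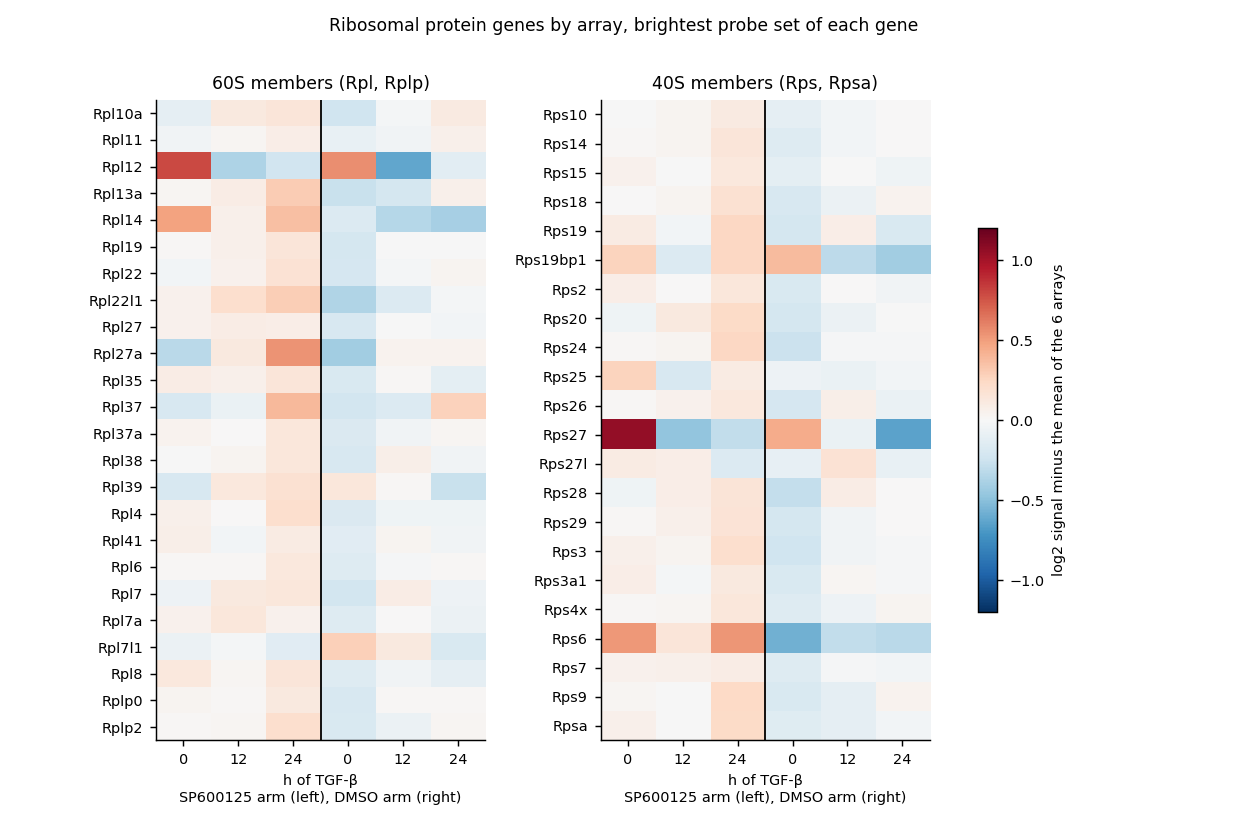
Each of the 46 tested ribosomal protein genes (vertical axis) on the 6 arrays (horizontal axis, h of TGF-β, SP600125 arm left and DMSO arm right), coloured by log2 signal minus the mean of the gene over 6 arrays. Most genes are pale blue in untreated cells and pale red at 24 h with SP600125, an order that median scaling and quantile normalization change, while Rpl12, Rps27, Rps6 and Rpl14 show deeper colours.

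TGF-β changed few ribosomal protein genes. In the additive limma model, with Benjamini-Hochberg adjustment over all 11731 genes tested and a threshold of 0.05, 0 of 46 members rose and 1 fell at 12 h, where 2.6% of all genes rose and 2.37% fell. At 24 h 2 rose and 2 fell, where 9.07% of all genes rose and 7.5% fell. As shares of the 46 members these counts were not tested against those of all genes. The median effect of the members was 0.07 at 12 h and 0.14 at 24 h on the log2 scale, against 0.02 and 0.07 over all genes, but it was −0.01 and 0.01 after median scaling and −0.02 and −0.01 after quantile normalization. At an unadjusted p under 0.05 there were 6 of 46 members at 12 h, where 21.7% of all genes were, and 9 at 24 h, where 31.3% of all genes were.

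Rpl12, a protein at the base of the stalk of the large subunit, fell at both times. Its signals were 1188, 528 and 583 at 0, 12 and 24 h of TGF-β with SP600125, against 1008, 444 and 628 with DMSO. The 2 arrays without TGF-β were the highest and did not overlap with the 4 arrays with it. Rpl12 had an effect of −1.18 ± 0.18 (SE) at 12 h, with an adjusted p of 0.0149 in limma, and of −0.85 ± 0.18 at 24 h, with an adjusted p of 0.018, lower in 2 of 2 pairs at each time.

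Rps27, a zinc finger protein of the small subunit, fell at 24 h. Its signals were 1418, 492 and 557 at 0, 12 and 24 h of TGF-β with SP600125, against 931, 647 and 437 with DMSO. Again both arrays without TGF-β lay above the 4 with it. Rps27 was at −1.22 ± 0.25 at 24 h with an adjusted p of 0.0156 in limma, and at −1.03 ± 0.25 at 12 h with an adjusted p of 0.0562, lower in 2 of 2 pairs at each time.

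The members that rose at 24 h both belong to the large subunit. Rpl37, a zinc finger protein, had signals of 6023, 6523 and 9028 at 0, 12 and 24 h of TGF-β with SP600125, against 5914, 6162 and 8349 with DMSO. Both 24 h arrays lay above the other 4, which differed little. Rpl37 rose by 0.54 ± 0.09 at 24 h with an adjusted p of 0.00863 in limma, and was at 0.09 ± 0.09 at 12 h. Rpl27a had 1876, 2542 and 3403 at 0, 12 and 24 h of TGF-β with SP600125, against 1758, 2418 and 2417 with DMSO. It was lowest on the 2 arrays without TGF-β, and its effects were 0.66 ± 0.14 at 24 h with an adjusted p of 0.0165 and 0.45 ± 0.14 at 12 h with an adjusted p of 0.104, higher in 2 of 2 pairs. All 4 called genes have signals under 10000. Rpl12, Rps27 and Rpl37 each had 1 probe set of 1 symbol, and the other probe set of Rpl27a lay below the floor. No second probe set could thus check these 4 calls. None of the 4 was called with any 1 of the 6 arrays left out, where the lowest adjusted p in limma was 0.0503, for Rps27. Without either 24 h array limma called 0 genes of any kind, which holds for all lists below too.

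**Figure D2:**
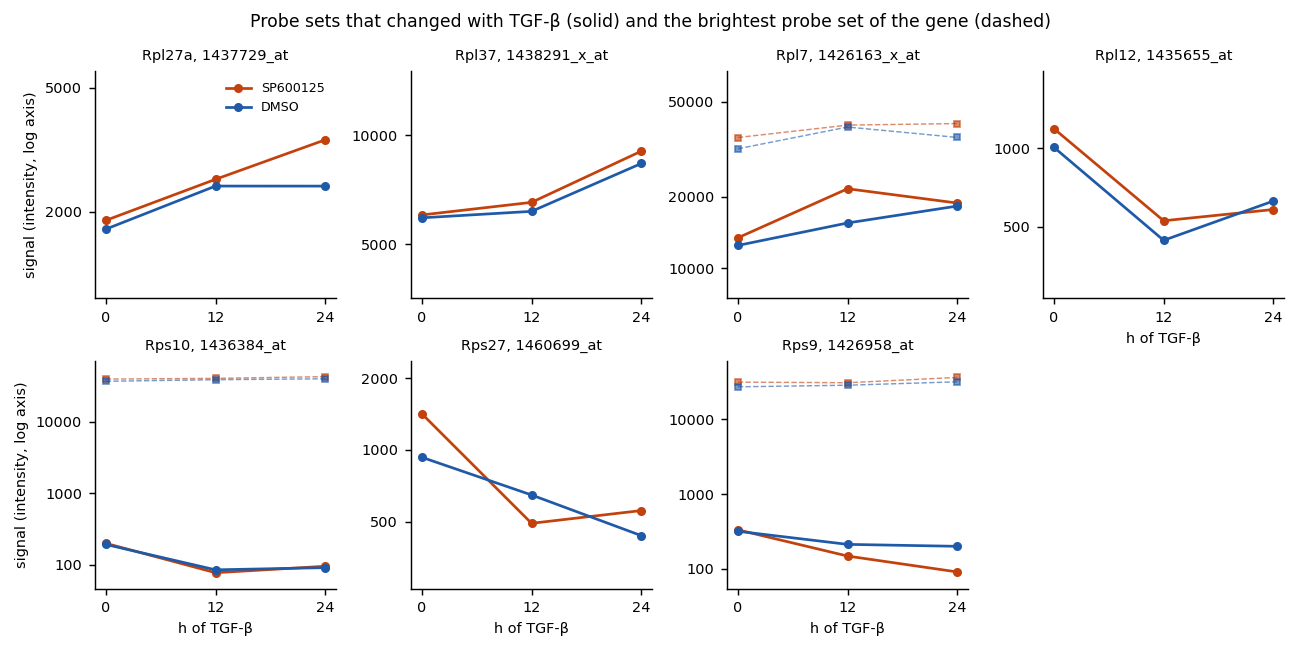
Signal (vertical, log axis, with its own range in each panel) against h of TGF-β for the 7 member probe sets called at 12 h or 24 h, with the SP600125 arm in red, the DMSO arm in blue and 1 array per point. Dashed lines give the brightest probe set of the gene where it is another one; the called probe sets of Rpl7, Rps10 and Rps9 lie below these lines.

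The test of single probe sets added members that the brightest probe sets do not show. Of 97 tested member probe sets, 2 fell and 0 rose at 12 h, where 1.33% of 24983 probe sets fell and 1.55% rose. At 24 h 4 fell and 3 rose, where 5.75% fell and 6.07% rose. Rps10, a small subunit protein that is ubiquitinated when ribosomes collide, had a dim probe set (1436384_at) with signals of 199, 76.9 and 94.7 at 0, 12 and 24 h of TGF-β with SP600125, against 192, 84.4 and 90.6 with DMSO. The 4 arrays with TGF-β were near the floor, and in limma it fell by 1.28 at 12 h and it fell by 1.07 at 24 h, in log2, with adjusted p of 0.0331 and 0.0254. The brightest probe set of Rps10 was at 0.05 ± 0.09 and 0.12 ± 0.09.

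Rps9, a small subunit protein that bears on decoding accuracy, had the same split. Its probe set 1426958_at had 334, 149 and 91.2 at 0, 12 and 24 h of TGF-β with SP600125, against 319, 213 and 201 with DMSO, and fell by 1.27 at 24 h with an adjusted p of 0.046 in limma, and was lower in each of 2 pairs. The brightest probe set of Rps9 was at 0.22 ± 0.09. Rpl7, a large subunit protein, rose in 1 of its 3 probe sets (1426163_x_at), by 0.52 ± 0.12 with an adjusted p of 0.0307 in limma, while the other two were at 0.18 ± 0.10 and 0.07 ± 0.10. At 24 h the probe sets of Rpl37a, Rps10, Rps20, Rps24 and Rps9 disagreed in sign by over 0.5, and at 12 h those of Rpl37a, Rpl41, Rps10, Rps18, Rps24 and Rps9.

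Between 24 h and 12 h of TGF-β no member was called, with 0 risen and 0 fallen where 0.017% of all genes rose and 0% fell. In limma 3 of 46 members had an unadjusted p under 0.05, where 15.3% of all genes did. They were Rpl37 at 0.45 ± 0.09, Rpl13a at 0.24 ± 0.09 and Rps27l, a paralog of Rps27 induced by p53, at −0.25 ± 0.11 on the log2 scale.

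SP600125 raised 3 of 46 member genes and lowered 0, where 3.99% of all genes rose and 3.69% fell by the same limma threshold. The share that rose is near the background. The effect was above 0 for 45 of 46 members, with a median of 0.14 against 0.04 over all genes, but it was above 0 for 41 members after median scaling, with a median of 0.06, and for 29 after quantile normalization, with a median of 0.02. The medians were 0.13 for the 24 genes named Rpl or Rplp and 0.15 for the 22 named Rps or Rpsa. An unadjusted p under 0.05 was found for 9 of 46 members and for 24.1% of all genes. With any 1 of the 6 arrays left out 0 members were called. These fits called 0 to 67 of all 11731 genes risen, against 468 with all 6 arrays, so the count does not set the members apart. The median effect of the members was 0.10 without the untreated array and 0.13 without 24 h of TGF-β and SP600125.

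Rps6, the small subunit protein that S6 kinases phosphorylate downstream of mTORC1, had signals of 2381, 1839.9 and 2405 at 0, 12 and 24 h of TGF-β with SP600125, against 1115, 1357 and 1326 with DMSO. Every array with SP600125 lay above every array with DMSO. Rps6 rose by 0.80 ± 0.14 (SE) with an adjusted p of 0.014 in limma, and was higher in each of 3 pairs. Its other probe set lay below the floor on all arrays.

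Rpl14, a large subunit protein, had 1868, 1390.0 and 1718 at 0, 12 and 24 h of TGF-β with SP600125, against 1189, 1050.5 and 1012 with DMSO. The arms did not overlap here either. Rpl14 rose by 0.61 ± 0.12 with an adjusted p of 0.02 in limma, and was higher in each of 3 pairs. Rpl22l1, a paralog that can replace Rpl22 in the large subunit and is restrained by it in mouse cells, had 18491, 20547 and 21956 at 0, 12 and 24 h of TGF-β with SP600125, against 13947, 15966 and 17538 with DMSO. Its arms did not overlap, and it rose by 0.36 ± 0.07 with an adjusted p of 0.0252, higher in 3 of 3 pairs. It is the only one of the 3 with signals above 10000. Neither Rpl14 nor Rpl22l1 had another probe set of 1 symbol.

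**Figure D3:**
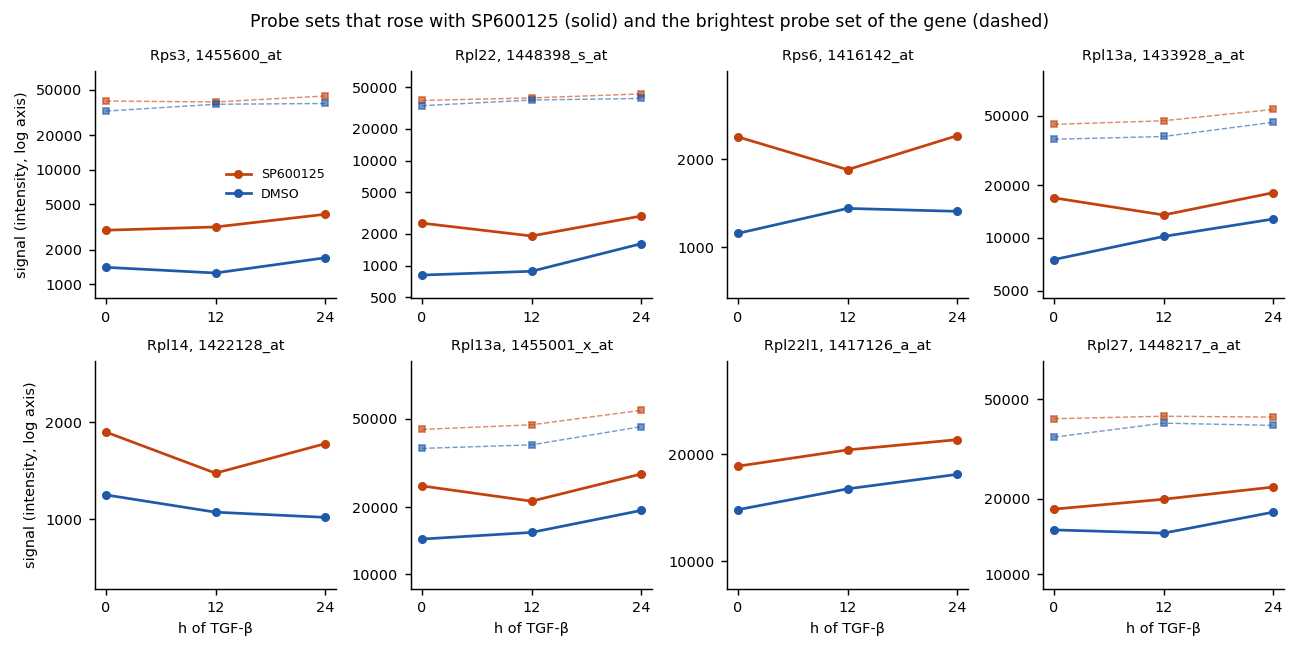
Signal (vertical, log axis, with its own range in each panel) against h of TGF-β for the 8 member probe sets that rose with SP600125, with the SP600125 arm in red, the DMSO arm in blue and 1 array per point. In each panel the red point lies above the blue one at 0, 12 and 24 h, and dashed lines give the brightest probe set of the gene where it is another one.

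Of the 97 tested member probe sets 8 rose with SP600125 and 0 fell, against 2.62% risen and 2.48% fallen among all of them. The largest effects were on dim probe sets of genes that also have bright ones. Rps3, which lines the entry of the messenger RNA channel in the small subunit, had at 1455600_at 2956, 3155 and 4074 at 0, 12 and 24 h of TGF-β with SP600125, against 1399.8, 1249 and 1696 with DMSO. The lowest array with the drug lay above the highest with DMSO, and the probe set rose by 1.23 ± 0.10 with an adjusted p of 7.03e-04 in limma. The brightest probe set of Rps3, at signals of 32551 to 44127, was at 0.19 ± 0.08 with an adjusted p of 0.236.

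Rpl22, the partner of Rpl22l1, had at 1448398_s_at 2534, 1911 and 2962 at 0, 12 and 24 h of TGF-β with SP600125, against 811, 881 and 1614 with DMSO. This probe set rose by 1.21 ± 0.15 with an adjusted p of 0.0039 in limma, and was higher in 3 of 3 pairs. The other two probe sets of Rpl22, with no signal under 29459, were at 0.13 ± 0.08 and 0.07 ± 0.08.

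Rpl13a, a large subunit protein that in human monocytes also silences inflammatory transcripts, rose in 2 of its 4 probe sets. The first, 1433928_a_at, had 16975, 13543 and 18176 at 0, 12 and 24 h of TGF-β with SP600125, against 7524, 10206 and 12848 with DMSO, and rose by 0.69 ± 0.14 with an adjusted p of 0.0273 in limma. The second, 1455001_x_at, had 24937, 21291 and 28195 at 0, 12 and 24 h of TGF-β with SP600125, against 14395, 15422 and 19359 with DMSO, and rose by 0.60 ± 0.09 with an adjusted p of 0.00892. In both the drug arm was higher in 3 of 3 pairs, and in 1433928_a_at and 1455001_x_at every array with drug lay above every array with DMSO. The brighter probe sets of Rpl13a were at 0.28 ± 0.08 and 0.16 ± 0.09, with adjusted p of 0.0848 and 0.329. Rpl27, a large subunit protein, rose by 0.35 ± 0.08 at 1448217_a_at with an adjusted p of 0.0398 in limma, against 0.15 ± 0.08 and 0.19 ± 0.08 at its other probe sets.

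**Figure D4:**
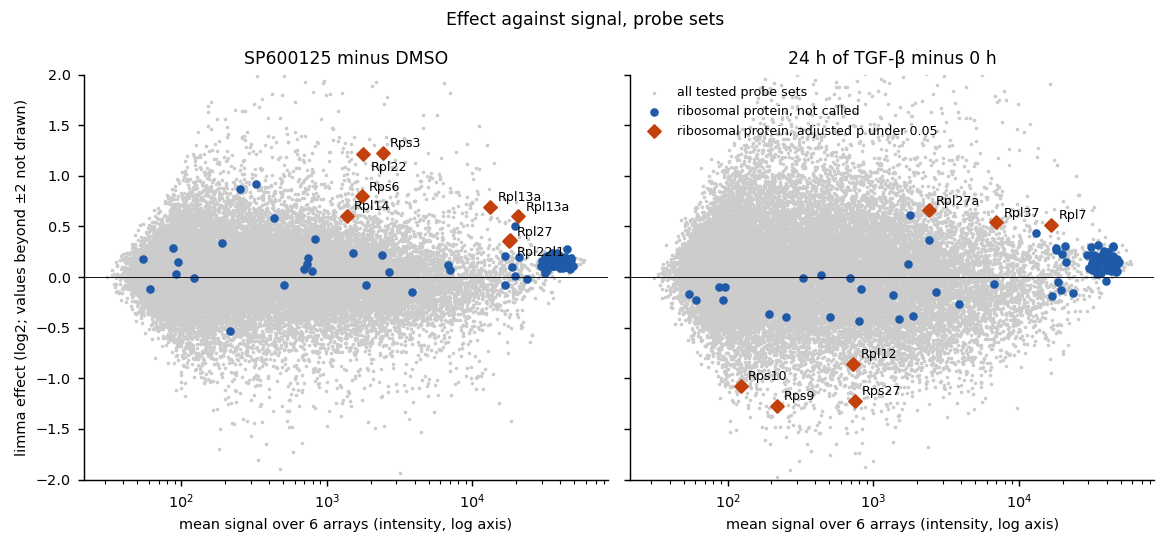
Limma effect (vertical, log2) of SP600125 (left) and of 24 h of TGF-β (right) against mean signal over 6 arrays (horizontal, log axis) for all 24983 tested probe sets in grey and member probe sets in blue or, if called, red. The members crowd at the bright end just above 0, a position that quantile normalization moves to near 0, and those called sit mostly at lower signals.

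The probe sets also differ by the kind of match their suffix states. Among the tested ones 28 end in _at, 28 in _a_at, which match several transcripts of 1 gene, 38 in _x_at and 3 in _s_at, which can match other transcripts. With SP600125 3 _at, 3 _a_at, 1 _s_at and 1 _x_at probe sets rose, and at 24 h of TGF-β all 4 that fell were _at. Among all probe sets 2.62% rose with SP600125 and 5.75% fell at 24 h. The tested _at members had a median signal of 1059, against 35496 for _a_at, 38184 for _x_at and 31149 for _s_at. Suffix and signal thus go together here. Ribosomal protein genes have many processed pseudogenes, so signals of members can hold transcripts of near-identical copies.

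Of the 50 member genes 15 contain a small nucleolar RNA gene in the RefSeq annotation. Rpl13a holds Snord32a, Snord33, Snord34 and Snord35a, Rps3 holds Snord15a and Snord15b, Rpl12 holds Snora65 and Rpl37 holds Snord72. With SP600125 3 of 22 tested probe sets of host genes rose, against 5 of 75 of the other genes, with median effects of 0.19 and 0.14, where 2.62% of all probe sets rose. At 24 h of TGF-β 2 rose and 1 fell among host genes, against 1 and 3 among the others, where 6.07% of all probe sets rose and 5.75% fell. No test compared the 2 kinds of gene.

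No member passed the test for a response to TGF-β that depends on SP600125. In the model with TGF-β, drug and their interaction, where 12 h and 24 h stood as repeats of 1 state, 0 members rose and 0 fell, where 0% of all genes rose and 0% fell in limma. The unadjusted p was under 0.05 for 0 members and for 315 genes of 11731 (2.69%). The members with the smallest p were Rpl39 at 0.62 ± 0.33, Rps19bp1 at 0.53 ± 0.33, Rps6 at −0.45 ± 0.31, Rps27 at −0.63 ± 0.44 and Rps25 at −0.32 ± 0.25, all with an adjusted p of 0.999 in limma.

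In single pairs of arrays, which have no test, no member was 2-fold higher with TGF-β and DMSO than in untreated cells, where 3.26% of all genes were at 12 h and 5.51% at 24 h. That is the study's own rule for an induced gene. Counting differences of at least 25% upward or 20% downward, which match each other as ratios, 2 of 46 members were higher and 3 lower at 12 h, where 23.8% and 18.4% of all genes were. Those higher were Rpl27a at 1.38-fold and Rps28, a small subunit protein, at 1.30-fold. At 24 h 5 were higher and 5 lower, where 29.2% and 20.8% of all genes were. With SP600125 in both arrays 2 were higher and 6 lower at 12 h, where 20.6% and 18.8% of all genes were, and 3 were higher and 2 lower at 24 h, where 28.6% and 20% were. The largest difference upward was that of Rpl27a at 24 h with SP600125, 1.81-fold, and the largest downward that of Rps27 at 12 h with SP600125, at 0.347 of the signal of SP600125 alone.

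For the drug, by the same marks 5 members were higher and 2 lower on SP600125 alone than in untreated cells, where 23.4% and 16.2% of all genes were. Rps6 was 2.14-fold higher in that pair, Rpl14 1.57-fold and Rps27 1.52-fold. At 12 h of TGF-β 3 were higher and 1 lower, where 20.2% and 15.1% were, and at 24 h 8 were higher and 0 lower, where 25.4% and 18.7% were. The 3 highest at 24 h were Rps6 at 1.81-fold, Rpl14 at 1.70-fold and Rps19bp1 at 1.59-fold. The median member was higher by 0.21 on the log2 scale at 0 h, by 0.06 at 12 h and by 0.17 at 24 h, against 0.02, 0.01 and 0.04 over all genes. These medians were 0.16, 0.0036 and 0.04 after median scaling, and 0.01, 0.03 and 0.03 after quantile normalization. Pairs of 1 arm share an array without TGF-β, so they are not independent of one another.

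The assembly factor Rpl7l1 had 3652, 3771 and 3493 at 0, 12 and 24 h of TGF-β with SP600125, against 4673, 4151 and 3382 with DMSO. It was the only tested member gene whose brightest probe set had an effect of SP600125 below 0, at −0.15 ± 0.10 with an adjusted p of 0.403 in limma. Among single member probe sets the effect was above 0 for 89 of the 97 tested. A dimmer probe set of Rpl7l1 was at 0.58 ± 0.18. Rps27l, unlike Rps27, did not pass at 24 h of TGF-β, at −0.13 ± 0.11 with an adjusted p of 0.455 in limma. Rpl39 had 599.7, 752 and 780.5 at 0, 12 and 24 h of TGF-β with SP600125, against 756, 694 and 572 with DMSO, with no common direction.

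Rpl11, which binds and restrains MDM2 when ribosome assembly fails, was among the steadiest, with 30715, 32078 and 33379 at 0, 12 and 24 h of TGF-β with SP600125, against 29629, 30706 and 33004 with DMSO. Rps19, the gene most often mutated in Diamond-Blackfan anaemia in humans, had 42637, 38917 and 47324 at 0, 12 and 24 h of TGF-β with SP600125, against 34488, 42149.7 and 35211 with DMSO. Rps25, which viral internal ribosome entry sites need, had 8074, 5858 and 7204 at 0, 12 and 24 h of TGF-β with SP600125, against 6430.2, 6360.5 and 6561 with DMSO. Effects of SP600125 in limma were 0.04 ± 0.08 for Rpl11, 0.21 ± 0.11 for Rps19 and 0.11 ± 0.10 for Rps25. Rpl10a, a large subunit protein, had effects of TGF-β of 0.22 ± 0.10 at 12 h and 0.29 ± 0.10 at 24 h, and Rpl38, which in mouse embryos favours translation of Hox transcripts, of 0.15 ± 0.10 and 0.15 ± 0.10. None of these 5 genes passed a test.

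Many factors that assemble ribosomes fell with TGF-β. Of 33 factors of small subunit assembly 17 fell at 12 h of TGF-β and 20 at 24 h in limma, and of 40 factors of large subunit assembly 18 and 23 fell, while 0 rose in either list. Over all genes 2.37% fell at 12 h against 2.6% that rose, while at 24 h 7.5% fell and 9.07% rose. The median effects at 24 h were −0.60 and −0.54, against 0.14 for the ribosomal protein genes and 0.07 for all genes. Rrp9, a U3 snoRNP protein, had 1331, 566 and 689 at 0, 12 and 24 h of TGF-β with SP600125, against 1556, 724 and 585 with DMSO, at −1.18 ± 0.19 at 24 h with an adjusted p of 0.00669 in limma. Rrp1b, a nucleolar factor of the large subunit, had 2005, 921 and 909 at 0, 12 and 24 h of TGF-β with SP600125, against 1977, 809 and 920.3 with DMSO, at −1.12 ± 0.14 at 24 h with an adjusted p of 0.00306. In both genes the arrays without TGF-β lay above the 4 with it. In log2 units, Bysl fell by 1.13 and Ftsj3 fell by 1.08 at 24 h. With SP600125 2 of the 33 and 1 of the 40 fell and 0 rose, with medians of −0.11 and −0.09.

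Chaperones and importers that bring ribosomal proteins to the nucleolus fell in part, 5 of 15 at 12 h and 8 at 24 h with 0 risen. Among all genes 2.37% fell and 2.6% rose at 12 h, and 7.5% fell and 9.07% rose at 24 h. Grwd1, a chaperone of Rpl3, was at −1.05 ± 0.14 at 24 h, and the importer Ipo5 at −0.72 ± 0.10. Of 12 genes of RNA polymerase I, which transcribes ribosomal RNA, 0 rose and 2 fell at each time. They were Polr1b, at −1.54 ± 0.21 at 24 h, and Polr1a, at −0.89 ± 0.20. Of 19 genes of RNA polymerase III, which makes 5S ribosomal RNA and tRNA, at 12 h 1 fell, while at 24 h 2 rose and 1 fell. These 24 h counts are near the shares of all genes. Polr3gl rose by 1.26 ± 0.27 and Gtf3a, the factor specific to 5S genes, fell by 0.71 at 24 h. With SP600125 0 chaperones and importers were called, 2 genes of RNA polymerase I rose, and 1 gene of RNA polymerase III rose and 1 fell. The one that rose was Maf1, a repressor of RNA polymerase III that mTORC1 inactivates, at 0.73 ± 0.09. Over all genes 3.99% rose and 3.69% fell with SP600125, near the counts of RNA polymerase III.

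**Figure D5:**
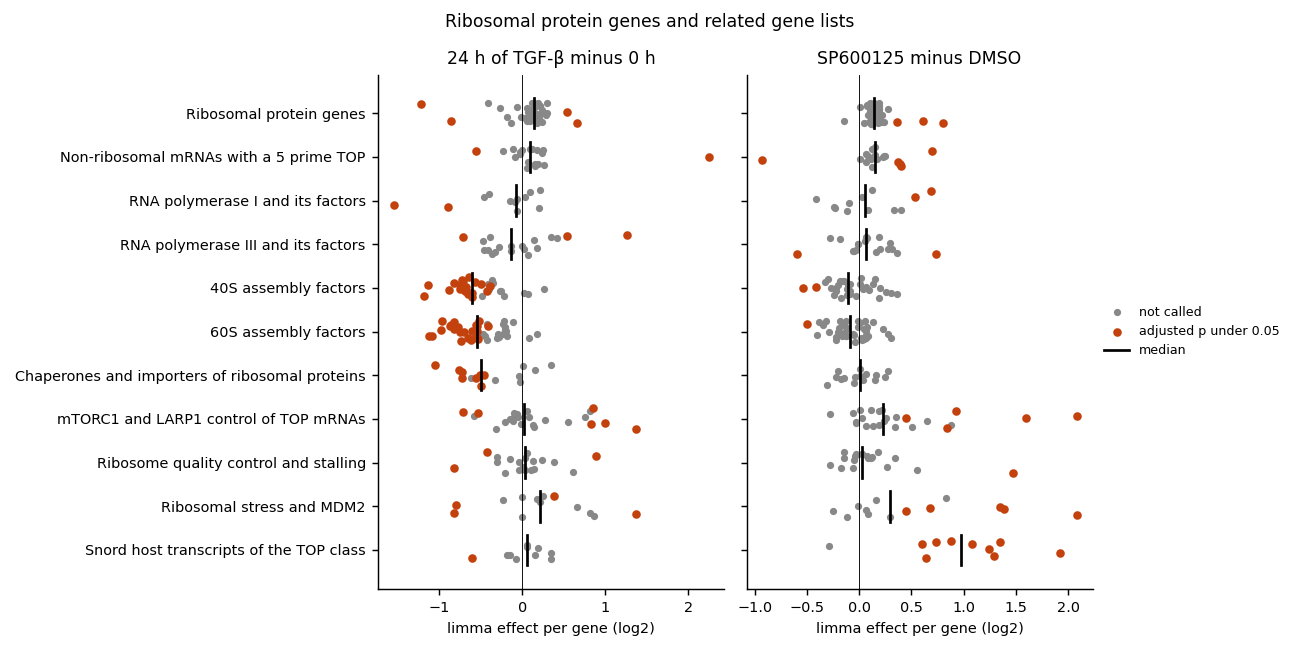
Limma effect per gene (horizontal, log2) of 24 h of TGF-β (left) and of SP600125 (right) for the 46 ribosomal protein genes and 10 related lists (vertical), with called genes in red and the median of each list as a black bar. Assembly factors of both subunits lie left of the ribosomal protein genes in the left panel, with medians of −0.60 and −0.54, and Snord host transcripts lie right in the right panel, with a median of 0.98.

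Other transcripts with a 5′ TOP tract had a median effect of TGF-β of 0.01 at 12 h, which was 0.09 by 24 h, and one of SP600125 of 0.15. The ribosomal protein genes had 0.07, 0.14 and 0.14, and all genes 0.02, 0.07 and 0.04. The 19 such genes are mostly translation factors, and they include Fau, which encodes a ribosomal protein under a name outside the rule. Of these 19, 1 rose at 12 h of TGF-β, and at 24 h 1 was risen and 1 fallen. For the whole set of 11731 genes, the risen share was 2.6% at 12 h, increasing to 9.07% by 24 h. Its fallen share went from 2.37% to 7.5%. The TGF-β counts of the 19 genes are thus near the background. With SP600125 4 rose and 1 fell, where 3.99% of all genes rose and 3.69% fell. Eef2, which moves the ribosome along, had 26732, 24505 and 30665 at 0, 12 and 24 h of TGF-β with SP600125, against 19627, 19694 and 23848 with DMSO. Its arms did not overlap, and it rose by 0.37 ± 0.08 with an adjusted p of 0.0254 in limma. Eif3f and Eif4b, initiation factors, rose by 0.40 ± 0.08 and 0.39 ± 0.08, and Hnrnpa1, an RNA-binding protein, by 0.70 ± 0.09. Vim, an intermediate filament gene listed for its TOP tract, rose by 2.25 ± 0.20 at 24 h of TGF-β and fell by 0.93 with SP600125.

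The non-coding hosts of small nucleolar RNAs, whose transcripts also begin with a TOP tract, rose with SP600125 in 9 of 10 cases, with a median effect of 0.98 and 0 fallen. Over all genes 3.99% rose and 3.69% fell with SP600125. Zfas1 had 10116, 7907 and 12039.7 at 0, 12 and 24 h of TGF-β with SP600125, against 2357, 2354 and 3204 with DMSO. Its lowest signal with drug was above its highest with DMSO, and it rose by 1.92 ± 0.09 with an adjusted p of 1.19e-04 in limma. Gas5, a host of many box C/D RNAs, had 16113, 10331 and 16491 at 0, 12 and 24 h of TGF-β with SP600125, against 7217, 5268 and 7618 with DMSO, and rose by 1.08 ± 0.08 with an adjusted p of 5.06e-04. Snhg6 rose by 1.34 ± 0.09. At 12 h of TGF-β 3 of the 10 fell, and at 24 h 1 fell, with 0 risen at both times. Among all genes 2.37% fell at 12 h and 7.5% at 24 h, so the share fallen at 24 h is near the background.

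Of 24 genes of mTORC1 and LARP1 control, which act on TOP transcripts, 5 rose and 0 fell with SP600125, where 3.99% of all genes rose and 3.69% fell. Sesn2, an inhibitor of mTORC1 on lack of leucine, had 660.5, 559 and 713 at 0, 12 and 24 h of TGF-β with SP600125, against 74.9, 216 and 214 with DMSO, and rose by 2.08 ± 0.33 with an adjusted p of 0.0107 in limma. Eif4ebp1, the mTORC1 target that blocks cap-dependent initiation, had 9566, 7969 and 8072 at 0, 12 and 24 h of TGF-β with SP600125, against 2953, 2491 and 3021 with DMSO, and rose by 1.60 ± 0.09 with an adjusted p of 1.44e-04. Both were higher in every pair with drug. At 12 h of TGF-β 2 of the 24 rose and 1 fell, while at 24 h 4 rose and 2 fell. Among all genes the shares were 2.6% risen and 2.37% fallen at 12 h, and 9.07% risen and 7.5% fallen at 24 h, so the share fallen at 24 h is near the background. Larp1 itself fell by 0.60 at 12 h, and Sesn3, a further mTORC1 inhibitor, rose by 0.92 ± 0.12.

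Of 13 genes of the MDM2 and ribosomal stress response 5 rose and 0 fell with SP600125, Sesn2 among them. Over all genes 3.99% rose and 3.69% fell with SP600125. The cell cycle inhibitor gene Cdkn1a rose by 1.38 ± 0.25, and Bbc3, which promotes cell death, by 1.35 ± 0.22. At 12 h of TGF-β 2 of the 13 fell and 0 rose, while at 24 h 2 rose and 2 fell. Of 19 genes of ribosome quality control 1 rose with SP600125 and 0 fell. It was Gtpbp2, which rescues stalled ribosomes, at 1.47 ± 0.14. At 12 h of TGF-β 1 fell and 0 rose, while at 24 h 1 rose and 2 fell. Usp10, a deubiquitinase of ribosomal proteins, was at −0.82 ± 0.11 at 24 h. Among all genes 2.37% fell and 2.6% rose at 12 h of TGF-β, and 7.5% fell and 9.07% rose at 24 h. The counts of ribosome quality control with SP600125 and at 24 h are near the shares of all genes.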

How the data were processed

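Gene expression was measured on 6 arrays, 1 per condition, grouped by sample title. The deposited values are linear intensity signals from GCOS 1.2, per the submitters' processing notes, with settings not given in the sources used here. The 2% trimmed mean of the deposited intensity was 500.0 on every array, and signals were used as deposited.

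Signals under the 50th percentile, 74.2, were raised to it, and log2 was taken. Each gene was its brightest probe set with 1 symbol, and the 11731 genes (24983 probe sets) above the floor on at least 2 arrays were tested in limma 3.58.1 under R 4.3.3, with an intensity trend and Benjamini-Hochberg adjustment over all of them. The additive model had TGF-β state and drug as terms, with 2 residual degrees of freedom and a prior of 5.97 more (2.79 in the interaction model). Errors after ± are standard errors. "Rose" and "fell" are limma calls, "higher" and "lower" single pairs. Tested on simulated data for the drug, the fit called 23 of 67 genes with a log2 effect of 1, 43 of 67 with 2, 0 of 66 with 0.5 and 3 of 11531 unchanged genes. The simulated data held no TGF-β effect, and the residual spreads were shuffled over genes without regard to signal. These rates therefore do not give the sensitivity for bright genes such as most members.

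The members and the related gene lists were chosen with earlier results of these data known. Named genes are called members, or those with the smallest p, pair extremes, paralogs, members with known further roles and leading genes of each list. Alternatives were median scaling, quantile normalization, a lower floor, no filter, other probe set rules, no trend and leaving out each array.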

Additional observations from a re-analysis of the deposited data

Results flagged for a closer look

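In 8 of 97 tested member probe sets TGF-β effects at both times had one direction with SP600125 and the opposite one with DMSO. All are log2 differences from the array of the same arm without TGF-β. How many of all probe sets show this pattern was not counted, so the 8 do not set the members apart. At 24 h the difference was near 0 for Rps18 with SP600125 (−0.0041) and for Rps27l with DMSO (0.0028). Rpl39 (1423032_at) was at 0.33 and 0.38 at 12 h and 24 h with SP600125, against −0.12 and −0.40 with DMSO, with an interaction of 0.62 ± 0.32 (SE). Rpl41 (1454639_x_at) was at 0.01 and 0.05 at 12 h and 24 h with SP600125, against −1.40 and −0.92 with DMSO, with an interaction of 1.19 ± 0.38 (SE). Rps10 (1439374_x_at) was at 1.13 and 0.75 at 12 h and 24 h with SP600125, against −1.02 and −0.29 with DMSO, with an interaction of 1.60 ± 0.51 (SE). Rps18 (1435712_a_at) was at −0.19 and −0.00 at 12 h and 24 h with SP600125, against 0.11 and 0.14 with DMSO, with an interaction of −0.22 ± 0.20 (SE). Rps24 (1455195_at) was at 0.14 and 0.23 at 12 h and 24 h with SP600125, against −0.94 and −0.96 with DMSO, with an interaction of 1.13 ± 0.37 (SE). Rps24 (1436500_at) was at −0.14 and −0.69 at 12 h and 24 h with SP600125, against 0.83 and 0.23 with DMSO, with an interaction of −0.94 ± 0.54 (SE). Rps27l (1450925_a_at) was at −0.02 and −0.26 at 12 h and 24 h with SP600125, against 0.26 and 0.00 with DMSO, with an interaction of −0.28 ± 0.26 (SE). Rps9 (1434624_x_at) was at −0.24 and −0.35 at 12 h and 24 h with SP600125, against 0.69 and 0.11 with DMSO, with an interaction of −0.69 ± 0.43 (SE). The limma test of the interaction gave all 8 a Benjamini-Hochberg adjusted p of 0.999. Both times of an arm share 1 array without TGF-β, and 5 of the 8 have no signal above 1282.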

How the results depend on the processing

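Every called member and member probe set kept the sign of its effect under each alternative run, but no member call held under all of them, and the median over members was below 0 after quantile normalization at both times of TGF-β and after median scaling at 12 h. Leaving out each of the 6 arrays in turn, a choice made after seeing the data for probe sets, gave 0 to 0 called members for every gene and probe set count at 12 h, at 24 h and with SP600125. Such a fit has 1 residual degree of freedom less, and it also called fewer of all genes and probe sets for these effects. Without a filter on dim genes, and likewise without an intensity trend, 0 member genes and 0 member probe sets were called in place of the counts above. Calls of these effects over all genes were also fewer. At 24 h of TGF-β 2 of 18194 genes rose without the filter and 385 of 11731 without the trend, against 1064 in the main fit. With SP600125 the genes that rose were 0 and 70, against 468. Without the filter 2 probe sets of Rps18 had a called interaction, and in both all 4 arrays with TGF-β were at the floor. Median scaling gave 2 genes fallen at 12 h in place of 1 and 5 probe sets risen with SP600125 in place of 8. A floor at the 25th percentile gave 2 genes and 1 probe set fallen at 12 h, and 2 probe sets fallen at 24 h in place of 4. Averaging all probe sets of a gene gave 1 gene risen and 1 fallen at 24 h and 0 risen with SP600125, and leaving out _s_at and _x_at probe sets gave 1 risen at 24 h. In single pairs, members at least 25% higher at 12 h of TGF-β with DMSO were 1 after median scaling, 1 after quantile normalization and 0 after averaging, in place of 2. At 24 h they were 2 after median scaling, 3 after quantile normalization and 3 without _s_at and _x_at, in place of 5. At 12 h with SP600125 in both arrays they were 1 under median scaling, quantile normalization and averaging, in place of 2. For the drug they were 10 after averaging at 0 h in place of 5, 5 after averaging and 6 without _s_at and _x_at at 12 h in place of 3, and 4 after median scaling at 24 h in place of 8. Members at least 20% lower were 7 of 41 in place of 3 at 12 h and 8 of 41 in place of 5 at 24 h of TGF-β with DMSO without _s_at and _x_at, and 4 in place of 2 at 24 h with SP600125 in both arrays after median scaling. For the drug they were 4 without _s_at and _x_at and 1 after averaging in place of 2 at 0 h, 2 in place of 1 at 12 h and 1 in place of 0 at 24 h, both without _s_at and _x_at. The causes of these changes were not tested. No paired analysis was possible because each condition had 1 array and no replicate numbers to block on, beyond the additive model's own comparison of the drug within each TGF-β state. Array and condition cannot be told apart, and signals near the floor limit what dim probe sets show.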
